A study of Mus musculus with 15 samples.

Results

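Transcripts of 9 tight junction genes were followed in the mouse large intestine after oral cymopol or a non-polar algal extract. The genes are the claudins Cldn2, Cldn3, Cldn4, Cldn7, Cldn15 and Cldn23, the membrane protein occludin (Ocln) and the scaffold proteins ZO-1 (Tjp1) and ZO-3 (Tjp3). They were taken by name, and the choice was made with earlier results of these data known. All 9 are among the 11585 genes tested. Those have a value in all 15 libraries and at least 1 FPKM (fragments scaled to transcript length and sequencing depth) in at least 3. RNA was sequenced from 5 groups of 3 libraries, all from male C57Bl/6 mice aged 4 weeks. Cymopol, a brominated hydroquinone of the green alga Cymopolia, was gavaged at 1.4 mmol/kg (high dose, replicates 11, 12 and 14) or 0.3 mmol/kg (low dose, replicates 33, 34 and 35). The extract was gavaged at 1.0 g/kg (high dose, replicates 21, 23 and 25) or 0.3 g/kg (low dose, replicates 26, 27 and 29). Vehicle mice (replicates 2, 4 and 5) received the solvent that all groups received, Chremophor EL (spelled as in the labels) with 10% DMSO. Dosing lasted 3 days, once every 24 h, and the intestine was collected 12 h after the final gavage. The values of a group are given below in this order of replicates. Whether a group's 3 libraries come from 3 mice is not given in the sources used here. Otherwise the spread behind each p-value may be technical.

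Tight junctions seal the space between neighbouring epithelial cells near their apical side. Claudins build the strands and set which ions pass, occludin lies in the same strands, and the ZO proteins tie the strands to the actin cytoskeleton. In the intestine, claudin-2 and claudin-15 form pores for small cations, while claudin-3, claudin-4 and claudin-7 are abundant in the colon and are mostly counted as sealing or structural.

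The 15 libraries were uneven, and the unevenness followed the groups. Estimated fragments in protein-coding genes ranged from 25153 to 559640 per library. The share of fragments assigned to genes was 65.5% to 65.7% at the cymopol high dose, 44.7% to 71.9% at the cymopol low dose, 57.2% to 65.2% at the extract high dose, 33.2% to 66.2% at the extract low dose and 8.53% to 46.5% in vehicle libraries. More than 20% of fragments lay between genes in vehicle replicates 2 and 5 and in extract low dose replicate 26. The part of this unevenness in the differences below was not tested. Results are therefore also given without those 3 libraries, which leaves vehicle replicate 4 as the lone vehicle library, assumed to vary like the other groups. That library stands apart too: 57.5% of its fragments lay inside genes in assembled loci given to no gene, the highest share of the 15 libraries, and it holds the highest immune marker levels given below. Each difference from the vehicle without the 3 libraries rests on it.

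The members' values are those of the gene's own Ensembl row in all 15 libraries for Cldn4 and Cldn23 only. In the other 7 genes, 10 to 15 libraries hold the gene as a locus assembled in that library, matched by position. Every high dose library is among them, so libraries with an own row are all vehicle or low dose. The Tjp1 locus spans 65296165 to 65371239 on chromosome 7 (GRCm38), which is 1 transcript of the longer gene, 65296165 to 65527781. Tjp1, Tjp3 and Cldn3 overlap other annotated genes (Gm44794, Gm44795 and Gm44792, Apba3, and Wbscr25), and since strand use in counting is not given in the sources used here, reads of such neighbours cannot be told apart. The deposited lower bound of the FPKM was 0 in 9 libraries each for Cldn2 and Ocln, 6 each for Cldn23 and Tjp1, 5 for Cldn15, 2 for Cldn3, 1 each for Cldn7 and Tjp3 and none for Cldn4.

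Against the vehicle, all 9 genes had a higher mean log2(FPKM + 1) at the cymopol high dose, where 79.6% of all genes did. At the extract high dose 8 of 9 did, all but Tjp1, where 77.1% of all genes did. None of the 9 passed the test, where 0.0173% of all genes passed with cymopol and 0.00863% with the extract. The median log2 difference of the 9 genes was 1.90 at the cymopol high dose and 1.64 at the extract high dose, where the medians over all 11585 genes were 0.81 with cymopol and 0.71 with the extract. The groups did not overlap for Cldn2, Cldn4, Ocln and Tjp3 with cymopol, nor for Cldn2, Cldn15 and Tjp3 with the extract. Over all genes, 19.5% were higher without overlap with cymopol and 19.4% with the extract. Both comparisons use the same 3 vehicle libraries. In bulk tissue, more epithelial cells and more RNA per cell at a high dose cannot be told apart.

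Sequences before the RefSeq start (GRCm38.p6, 250 bases, 5′ to 3′) are shown for the 5 genes that did not overlap the vehicle at 1 or both high doses. They are printed so that these genes can be compared for named motifs. Capitals mark the AP-1 site TGACTCA, the E-box CAGGTG and the TATA box TATAAA on either strand. The first listed start was taken where a gene has several.
Cldn2 (chrX:139800558-139800807, plus strand): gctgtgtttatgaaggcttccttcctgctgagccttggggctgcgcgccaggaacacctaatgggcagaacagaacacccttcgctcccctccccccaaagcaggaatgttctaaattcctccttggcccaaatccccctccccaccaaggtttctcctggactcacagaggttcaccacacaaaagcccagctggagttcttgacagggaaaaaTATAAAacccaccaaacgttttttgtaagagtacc
Cldn4 (chr5:134946935-134947184, minus strand): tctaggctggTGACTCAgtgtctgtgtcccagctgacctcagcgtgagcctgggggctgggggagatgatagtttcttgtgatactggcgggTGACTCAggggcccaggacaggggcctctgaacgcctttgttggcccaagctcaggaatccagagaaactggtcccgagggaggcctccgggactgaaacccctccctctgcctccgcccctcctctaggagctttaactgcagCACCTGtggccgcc
Cldn15 (chr5:136967619-136967868, plus strand): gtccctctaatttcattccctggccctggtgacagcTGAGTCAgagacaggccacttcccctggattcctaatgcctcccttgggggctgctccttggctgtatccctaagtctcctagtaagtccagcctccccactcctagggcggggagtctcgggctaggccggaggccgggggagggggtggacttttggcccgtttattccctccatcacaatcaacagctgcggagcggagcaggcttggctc
Ocln (chr13:100552719-100552968, minus strand): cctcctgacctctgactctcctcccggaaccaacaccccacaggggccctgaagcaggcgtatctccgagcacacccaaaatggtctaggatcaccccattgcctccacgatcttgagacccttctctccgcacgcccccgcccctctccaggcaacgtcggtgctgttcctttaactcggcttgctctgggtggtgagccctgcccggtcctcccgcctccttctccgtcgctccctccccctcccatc
Tjp3 (chr10:81291582-81291831, minus strand): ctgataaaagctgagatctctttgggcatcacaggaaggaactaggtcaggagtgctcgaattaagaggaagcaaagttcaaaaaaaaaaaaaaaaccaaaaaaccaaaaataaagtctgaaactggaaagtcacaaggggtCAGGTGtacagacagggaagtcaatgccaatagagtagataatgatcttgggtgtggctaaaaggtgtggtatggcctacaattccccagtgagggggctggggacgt
Among these 5 sequences, Cldn4 held 2 AP-1 sites, 240 to 234 and 158 to 152 bases before its start, and an E-box at 14 to 9. Cldn15 held 1 AP-1 site at 214 to 208, which overlaps the only antioxidant response element core (TGACNNNGC) of the member promoters, at 216 to 208. The Cldn15 window lies inside the longer GENCODE gene. Cldn2 held a TATA box at 35 to 30, Tjp3 an E-box at 108 to 103, and Ocln none of the 3 capitalised motifs. This depends on the start taken. Before its second listed start, not shown, Ocln held 2 E-boxes, at 213 to 208 and 68 to 63. Tjp3 held an E-box at 17 to 12 before its second start. Over 32851 RefSeq promoters of the same length, 4.46% held TGACTCA, 17.2% CAGGTG, 12.4% TATAAA and 10.2% TGACNNNGC on either strand. The GC box GGGCGG, in 32.7% of them, was found in Cldn4, Cldn15 and Ocln of the 5, and the xenobiotic response element core GCGTG, in 28.2%, in Cldn4 and Ocln. Promoters were listed for 8 of the 9 genes. The matches describe letters only.

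**Figure D1:**
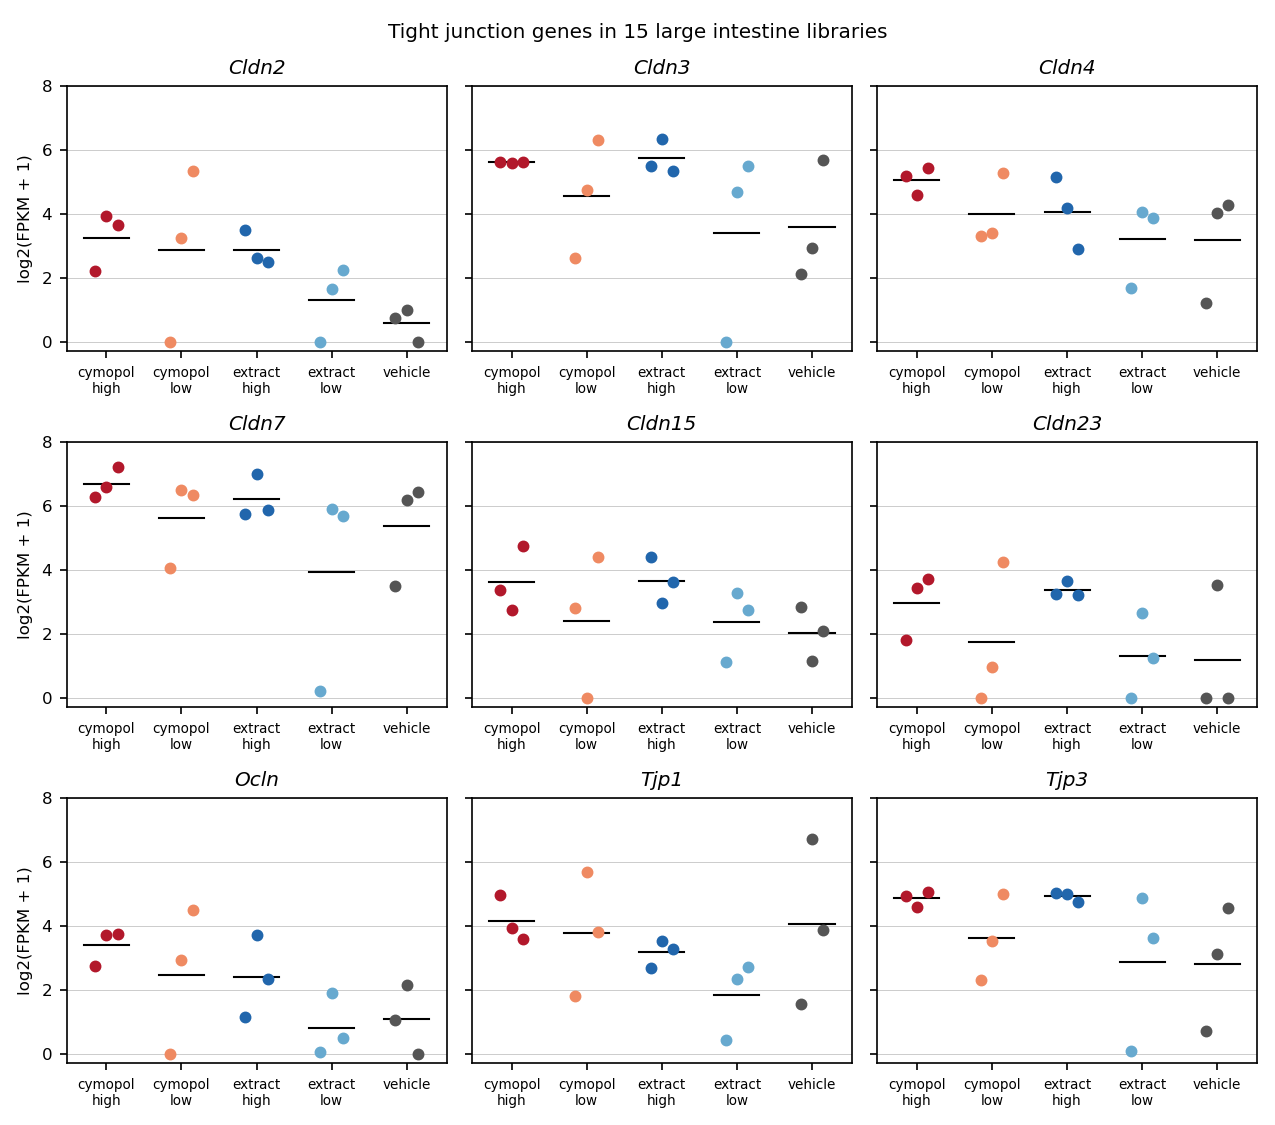
Each panel plots 1 gene, with log2(FPKM + 1) on the vertical axis and the 5 groups along the horizontal axis. Points are libraries and black lines are group means (n = 3). Cldn2 in the high doses lies above all 3 vehicle libraries, while single libraries of the low dose and vehicle groups sit at or near 0 for most genes.

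Cldn2, the cation and water channel claudin of leaky epithelia (ENSMUSG00000047230, chromosome X, 139800828 to 139811386), was at or below 0.983 FPKM in every vehicle library. It had 3.59, 14.1 and 11.6 FPKM at the cymopol high dose and 10.2, 5.18 and 4.67 FPKM at the extract high dose, against 0.675, 0.983 and 0 FPKM in vehicle libraries. Every high dose library was above every vehicle library. The log2 difference from the vehicle was 2.68 (SE 1.13) with cymopol, with an unadjusted p of 0.0238 and an adjusted p of 0.326 by limma, and 2.29 (SE 1.13) with the extract, with an unadjusted p of 0.0507 and an adjusted p of 0.432. At the low doses it had 0, 8.54 and 39.3 FPKM with cymopol and 0, 2.11 and 3.75 FPKM with the extract, and 1 library of each overlapped the vehicle. The cymopol low dose held both the highest value of all 15 libraries, in replicate 35, and a 0. Without the 3 libraries rich in intergenic fragments, the log2 difference was 2.27 with the cymopol high dose and 1.88 with the extract high dose. All 3 vehicle values have a lower bound of 0, so the vehicle level is uncertain. The number of fragments behind it is not known, since estimates are too low for many assembled loci and a listed 0 may be a failed estimate.

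Cldn15, the other cation pore (ENSMUSG00000001739, chromosome 5, 136966616 to 136975858), had 9.31, 5.76 and 26.0 FPKM at the cymopol high dose and 20.1, 6.83 and 11.2 FPKM at the extract high dose, against 6.11, 1.22 and 3.26 FPKM in vehicle libraries. The extract high dose did not overlap the vehicle, whereas cymopol replicate 12 lay below vehicle replicate 2. The low doses had 5.96, 0 and 20.1 FPKM with cymopol and 1.16, 8.71 and 5.65 FPKM with the extract, and both overlapped the vehicle. Its log2 difference was 1.60 (SE 1.16, adjusted p 0.541 by limma) at the cymopol high dose and 1.64 (SE 1.16, adjusted p 0.579) at the extract high dose.

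Cldn7, a claudin of the lateral membrane as well as the junction (ENSMUSG00000018569, chromosome 11, 69964779 to 69967885), was the most abundant member by FPKM, a per-length scale, in 13 of 15 libraries. It had 77.4, 95.3 and 148 FPKM at the cymopol high dose and 53.0, 127 and 57.7 FPKM at the extract high dose, against 10.2, 71.5 and 86.1 FPKM in vehicle libraries. The 2 higher vehicle libraries lay within the range of the extract libraries, and replicate 2 lay far below. It had 15.5, 88.7 and 80.0 FPKM at the cymopol low dose and 0.152, 58.3 and 50.3 FPKM at the extract low dose. Means were 106.8 ± 36.6 FPKM at the cymopol high dose, 79.1 ± 41.3 FPKM at the extract high dose and 56.0 ± 40.3 FPKM in vehicle libraries (SD, n = 3 each). On the log2 scale the difference was 1.33 (SE 1.39, adjusted p 0.669 by limma) at the cymopol high dose and 0.84 (SE 1.39, adjusted p 0.825) at the extract high dose. Without vehicle replicate 2 it was 0.39 with cymopol and −0.10 with the extract, so the direction with the extract rested on that library.

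Cldn3, a barrier-forming claudin (ENSMUSG00000070473, chromosome 5, 134986214 to 134987472), was the most even member at the cymopol high dose, with 48.3, 47.5 and 48.5 FPKM. It had 44.4, 79.9 and 40.0 FPKM at the extract high dose, against 3.34, 6.58 and 50.8 FPKM in vehicle libraries. Vehicle replicate 5 alone lay above the cymopol libraries, and it overlapped the extract libraries. The low doses ranged more widely, with 5.09, 26.0 and 77.6 FPKM for cymopol and 0, 24.8 and 44.4 FPKM for the extract. The log2 difference was 2.04 (SE 1.37, adjusted p 0.508 by limma) at the cymopol high dose and 2.16 (SE 1.37, adjusted p 0.533) at the extract high dose. Without vehicle replicate 2 it was 1.31 with cymopol and 1.43 with the extract, and without vehicle replicate 5 it was 3.10 with cymopol and 3.21 with the extract.

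Cldn4, which lies close to Cldn3 in the genome (ENSMUSG00000047501, chromosome 5, 134945119 to 134946934, minus strand), had 35.2, 23.2 and 42.3 FPKM at the cymopol high dose and 34.5, 17.0 and 6.42 FPKM at the extract high dose, against 1.32, 15.2 and 18.5 FPKM in vehicle libraries. The cymopol libraries lay above all 3 vehicle libraries, and the extract libraries spread from below vehicle replicate 4 to the cymopol range. It had 8.83, 9.56 and 38.0 FPKM at the cymopol low dose and 2.24, 15.7 and 13.8 FPKM at the extract low dose. Its log2 difference was 1.90 (SE 1.22, adjusted p 0.487 by limma) at the cymopol high dose and 0.90 (SE 1.22, adjusted p 0.786) at the extract high dose. Without vehicle replicate 2 it was 0.92 with cymopol and −0.081 with the extract. This gene has an own row throughout, and its values rest on an estimated 11.9 to 188 fragments per library.

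Cldn23, a claudin known from the differentiated colon surface (ENSMUSG00000055976, chromosome 8, 35824712 to 35826559, minus strand), had 2.46, 9.68 and 12.2 FPKM at the cymopol high dose and 8.43, 11.5 and 8.19 FPKM at the extract high dose, against 0, 10.4 and 0 FPKM in vehicle libraries. Both groups overlapped the vehicle through replicate 4 alone. The low doses had 0, 0.967 and 17.8 FPKM with cymopol and 0, 5.32 and 1.39 FPKM with the extract. On the log2 scale the difference was 1.80 (SE 1.16, adjusted p 0.489 by limma) at the cymopol high dose and 2.19 (SE 1.16, adjusted p 0.464) at the extract high dose. Against vehicle replicate 4 alone it was −0.54 with cymopol and −0.15 with the extract, so the direction turned without replicates 2 and 5, where the gene is listed at 0. Its values rest on at most 60.2 estimated fragments.

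Occludin (ENSMUSG00000021638, chromosome 13, 100496507 to 100552718, minus strand) had 5.67, 12.1 and 12.5 FPKM at the cymopol high dose and 1.24, 12.1 and 4.05 FPKM at the extract high dose, against 1.10, 3.48 and 0 FPKM in vehicle libraries. All 3 cymopol libraries lay above the vehicle, while 1 extract library lay within its range. It had 0, 6.67 and 21.4 FPKM at the cymopol low dose and 0.0346, 2.75 and 0.395 FPKM at the extract low dose. The log2 difference was 2.33 (SE 1.11) at the cymopol high dose, with an unadjusted p of 0.0434 and an adjusted p of 0.364 by limma, and 1.33 (SE 1.11, adjusted p 0.639) at the extract high dose. Without the 3 libraries rich in intergenic fragments it was 1.24 with cymopol and 0.24 with the extract.

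Of the ZO scaffolds, Tjp3, which encodes the epithelial ZO-3 (ENSMUSG00000034917, chromosome 10, 81273207 to 81291581, minus strand), had 29.5, 23.1 and 32.4 FPKM at the cymopol high dose and 31.7, 31.0 and 25.8 FPKM at the extract high dose, against 0.643, 7.77 and 22.7 FPKM in vehicle libraries. Neither high dose overlapped the vehicle, although the lowest cymopol value and the highest vehicle value lay close together. The value was that of an assembled locus in every high dose library. It was that of the own row in vehicle replicate 4, cymopol low dose replicates 33 and 34 and extract low dose replicates 26 and 29. All own row values lay below every high dose value, and the part of the value source was not tested. The low doses had 3.98, 10.4 and 31.1 FPKM with cymopol and 0.0608, 28.04 and 11.3 FPKM with the extract. Means were 28.3 ± 4.73 FPKM at the cymopol high dose, 29.5 ± 3.23 FPKM at the extract high dose and 10.4 ± 11.3 FPKM in vehicle libraries (SD, n = 3 each). Its log2 difference was 2.06 (SE 1.28, adjusted p 0.480 by limma) at the cymopol high dose and 2.12 (SE 1.28, adjusted p 0.513) at the extract high dose. Without vehicle replicate 2 it was 1.01 with cymopol and 1.07 with the extract, and without vehicle replicate 5 it was 2.94 with cymopol and 3.00 with the extract.

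Tjp1, the scaffold ZO-1 that many epithelia and endothelia share (ENSMUSG00000030516), had the smallest difference at the cymopol high dose and the only negative one at the extract high dose. It had 30.3, 14.4 and 11.0 FPKM at the cymopol high dose and 5.42, 10.6 and 8.79 FPKM at the extract high dose, against 1.95, 105 and 13.7 FPKM in vehicle libraries. Vehicle replicate 4 held the highest value of all 15 libraries, and Tjp1 was its most abundant member. The low doses had 2.47, 51.0 and 13.0 FPKM with cymopol and 0.336, 4.09 and 5.60 FPKM with the extract. On the log2 scale the difference was 0.11 (SE 1.27, adjusted p 0.977 by limma) at the cymopol high dose and −0.89 (SE 1.27, adjusted p 0.797) at the extract high dose. Without vehicle replicate 4 it was 1.45 with cymopol and 0.45 with the extract. Without vehicle replicate 2 it was −1.14 with cymopol and −2.13 with the extract, so neither sign held. Without the 3 libraries rich in intergenic fragments it was −2.57 with cymopol and −3.56 with the extract, set against the high value of vehicle replicate 4 (adjusted p 0.384 and 0.188 by limma). Median-of-ratios scaling also gave −0.95 for the cymopol high dose, and quantile normalization gave −0.59.

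As a set, 0 of 9 genes passed an adjusted p of 0.05 in any comparison by limma. Over all genes, 0.0173% passed at the cymopol high dose against the vehicle, 0.0% in each low dose and 0.00863% at the extract high dose. At an unadjusted p of 0.05, 2 of 9 were higher at the cymopol high dose (Cldn2 and Ocln), where 12.5% of all genes were, and 0 of 9 were higher at the extract high dose, where 10.6% were. Groups did not overlap for 4 of 9 at the cymopol high dose against 19.5% of all genes, and for 3 of 9 at the extract high dose against 19.4%. The extract count was 5 without vehicle replicate 4, where 43.5% of all genes were without overlap. Against the lone vehicle library that remains without the 3 libraries rich in intergenic fragments, the count was 7 with cymopol, where 32.3% of all genes were without overlap, and 4 with the extract, where 32.4% were. A log2 difference above 0 was found for 9 of 9 genes at the cymopol high dose and 8 of 9 at the extract high dose, and for 79.6% of all genes with cymopol and 77.1% with the extract. Median-of-ratios scaling gave a median of 0.24 over all genes and 0.84 over the 9 genes with cymopol, where 8 of 9 were above 0. With the extract it gave 0.25 over all genes and 0.47 over the 9, where 7 of 9 were above 0.

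**Figure D2:**
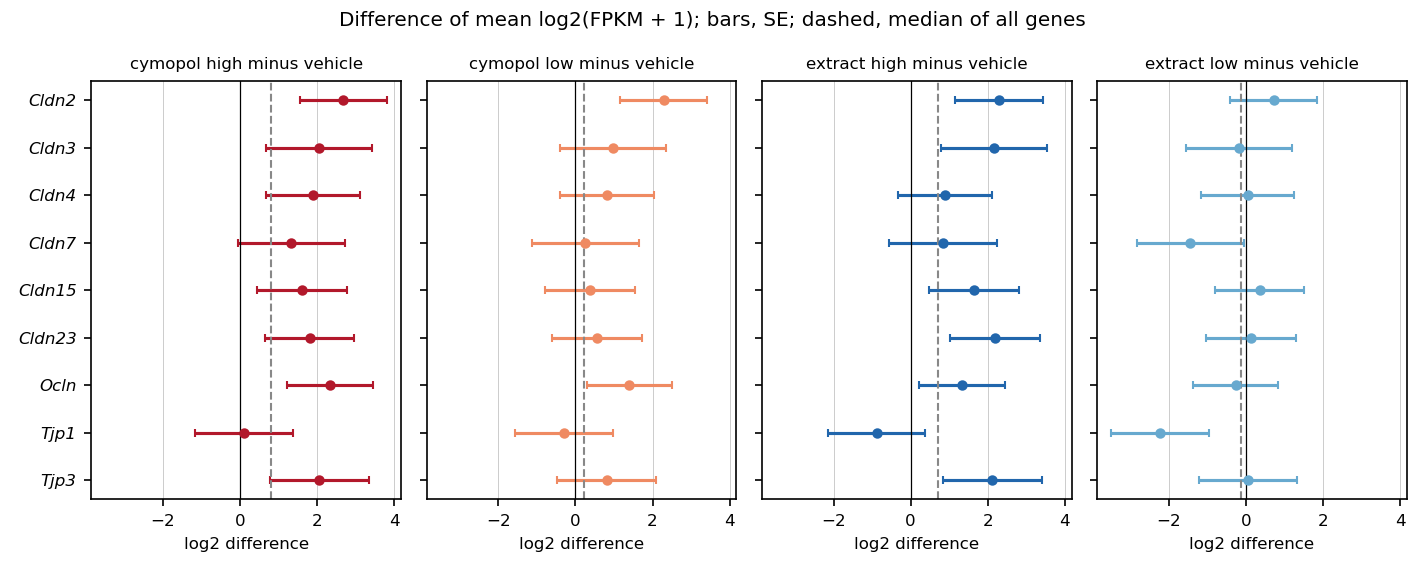
The log2 difference of each gene from the vehicle is plotted on the horizontal axis, with bars for its SE, in 1 panel per treated group. The dashed line is the median of all genes. Most points of the high doses lie right of the dashed line, and Tjp1 lies at 0.11 with the cymopol high dose and −0.89 with the extract high dose.

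At the low doses no gene was without overlap and 0 of 9 were higher at an unadjusted p of 0.05, where 3.9% of all genes were with cymopol and 1.1% with the extract. With cymopol, 8 of 9 log2 differences from the vehicle were above 0, where 59.0% of all genes were, and their median was 0.81 against 0.23 over all genes. The smallest p belonged to Cldn2, at a log2 difference of 2.29 (SE 1.13, unadjusted p 0.0516, adjusted p 0.870 by limma). In the full data 3.9% of all genes were without overlap with cymopol. Without cymopol low dose replicate 33 the count was 2 of 9, where 15.5% of all genes were without overlap. The median of the 9 was −0.021 without vehicle replicate 2, where that of all genes was −0.046. It was 0.10 without cymopol low dose replicate 35, where that of all genes was −0.037. With the extract, 5 of 9 were above 0, against 41.9% of all genes, and the median was 0.042 against −0.14 over all genes. Tjp1 had a log2 difference of −2.23 (SE 1.27, adjusted p 1 by limma) and Cldn7 −1.45 (SE 1.39, adjusted p 1). Cldn7 was at 0.41 without extract low dose replicate 26. The median of the 9 was 0.80 without that library, where that of all genes was 0.24. It was −0.91 without vehicle replicate 2, where that of all genes was −0.5. In the full data 1.23% of all genes were without overlap with the extract. Without extract low dose replicate 26 the count was 1 of 9, where 12.1% of all genes were without overlap, and without the 3 libraries rich in intergenic fragments it was 4, where 21.1% were. Tjp1 was at −4.20 without those 3 libraries (adjusted p 0.12 by limma) and at −3.47 without vehicle replicate 2 and −0.89 without vehicle replicate 4.

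Between doses, all 9 genes had the higher mean at the high dose of each agent, as did 76.8% of all genes for cymopol and 88.0% for the extract. The median log2 difference of the high from the low dose was 1.08 for cymopol and 1.59 for the extract, against 0.59 for cymopol and 0.89 for the extract over all genes, of which 0.00863% passed in each. At an unadjusted p of 0.05, 0 of 9 were higher for either agent, where 5.36% of all genes were for cymopol and 7.1% for the extract. For cymopol no gene was without overlap, against 9.71% of all genes, and the count was 4 without low dose replicate 35, where 33.4% of all genes were without overlap, and 1 without high dose replicate 11, where 19.9% were. The smallest p was that of Cldn23, with a log2 difference of 1.24 (SE 1.16, unadjusted p 0.293, adjusted p 0.886 by limma). For the extract, Cldn2 and Cldn23 were without overlap, against 20.9% of all genes. That count was 4 without high dose replicate 21 and 5 without 25, where 30.9% and 31.9% of all genes were without overlap. It was 6 without low dose replicate 27 and 4 without 29, where 41.0% and 35.2% were. Cldn23 had a log2 difference of 2.06 (SE 1.16, adjusted p 0.637 by limma) and Cldn3 one of 2.34 (SE 1.37, adjusted p 0.637). Cldn3 was at 0.64 without extract low dose replicate 26, where it is listed at 0. The effect of dose was also compared between the agents, whose doses are in different units, and the difference had an adjusted p of 1 by limma for all 9 genes.

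The 9 genes were also set against epithelial markers of the same library. The mean of their log2(FPKM + 1) was 4.12 to 4.76 at the cymopol high dose, 1.87 to 5.02 at the cymopol low dose, 3.76 to 4.33 at the extract high dose, 0.40 to 3.48 at the extract low dose and 1.53 to 3.42 in vehicle libraries. The mean of 14 epithelial markers, all tested, was 6.14 to 6.62 at the cymopol high dose, 4.20 to 6.45 at the cymopol low dose, 5.74 to 6.22 at the extract high dose, 2.17 to 5.64 at the extract low dose and 2.16 to 5.43 in vehicle libraries. Subtracting the markers from the members within a library gave −2.02 to −1.87 at the cymopol high dose, −1.98 to −1.89 at the extract high dose and −2.43 to −0.63 in vehicle libraries. On this relative scale the members of both high doses lay inside the vehicle range. That range was wide, with −0.63 in replicate 2, −1.62 in replicate 4 and −2.43 in replicate 5. Replicate 2 had 8.53% of fragments in genes. With so wide a range, lying inside it cannot decide whether members and markers moved together. The low doses gave −2.37 to −1.43 with cymopol and −2.51 to −1.78 with the extract. All 14 markers had log2 differences above 0 in both high doses, where 79.6% of all genes did with cymopol and 77.1% with the extract. Their medians were 2.23 with cymopol and 1.78 with the extract. Krt19, a keratin of simple epithelia, had one of 3.02 (adjusted p 0.322 by limma) with cymopol and 2.60 (adjusted p 0.426) with the extract.

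**Figure D3:**
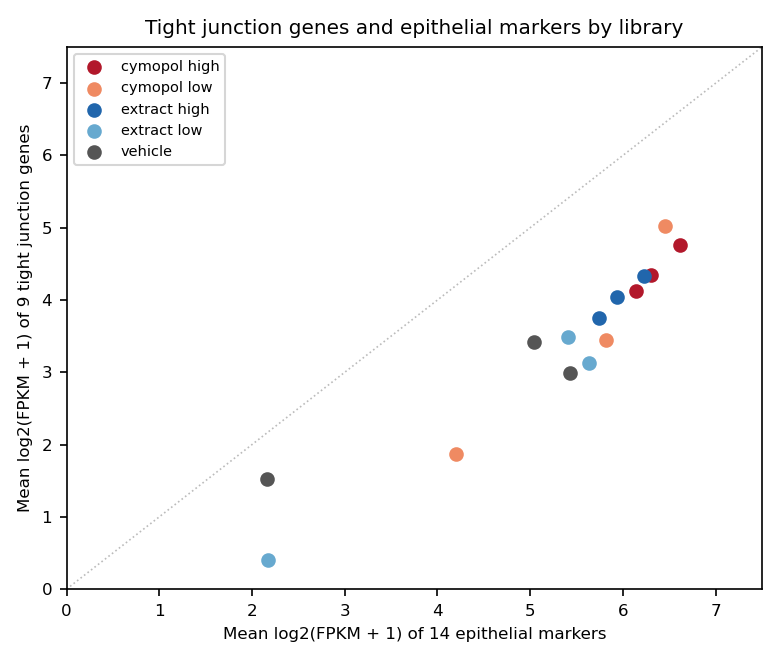
Each point is 1 of 15 libraries, with the mean log2(FPKM + 1) of 14 epithelial markers on the horizontal axis and that of the 9 tight junction genes on the vertical axis. The dotted line marks equal values. High dose libraries lie at the upper right, at member means of 3.76 to 4.76, and the vehicle libraries at 1.53 to 3.42.

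Markers of other cell types were measured beside them. Smooth muscle markers, 7 of 7 tested, had a mean log2(FPKM + 1) of 6.16 to 7.41 at the cymopol high dose, 5.75 to 6.96 at the extract high dose and 3.64 to 7.17 in vehicle libraries. Adipocyte markers, 8 of 8, ranged from 3.47 to 4.57 at the cymopol high dose, 1.53 to 2.70 at the extract high dose and 0.73 to 4.50 in vehicle libraries. Goblet cell markers, 6 of 7, ranged from 6.08 to 7.62 at the cymopol high dose and 5.17 to 7.39 at the extract high dose. In vehicle libraries they ranged from 1.92 to 4.79. Surface colonocyte markers, 5 of 6, ranged from 6.20 to 6.86 at the cymopol high dose and 5.02 to 7.095 at the extract high dose. Both overlapped the vehicle, at 3.5 to 6.48. Epithelial transcription factors, 9 of 9, ranged from 3.16 to 4.76 with cymopol and 3.20 to 4.24 with the extract at the high doses. These also overlapped the vehicle, at 1.27 to 3.22. B and plasma cell markers, 2 of 6 tested, ranged from 0 to 3.01 at the cymopol high dose, 0.36 to 1.77 at the extract high dose and 0 to 3.83 in vehicle libraries. T cell markers, 2 of 4, did not exceed 1.58 at the cymopol high dose, 0.62 at the extract high dose and 3.76 in vehicle libraries. Myeloid markers, 4 of 5, ranged from 0.51 to 2.73 at the cymopol high dose, 0.36 to 2.12 at the extract high dose and 0 to 3.42 in vehicle libraries. Vehicle replicate 4 was the highest of the 15 libraries in all 3 immune lists, and the other 2 vehicle libraries lay between 0 and 1.70 in them. The part of these cell types in the members' differences was not tested.

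Few other claudins were seen. Of 18 listed, 3 were tested, and Cldn6, Cldn16, Cldn17, Cldn20, Cldn22 and Cldn24 are listed at 0 in all 15 libraries. Cldn8, a claudin of the distal colon, had 0.702, 13.8 and 0 FPKM at the cymopol high dose and 1.93, 10.0 and 1.05 FPKM at the extract high dose, against 2.88, 0 and 0 FPKM in vehicle libraries. Cldn5, the main claudin of endothelium, had 1.91, 3.67 and 1.77 FPKM at the cymopol high dose and 0, 1.82 and 0 FPKM at the extract high dose, against 0, 9.56 and 0 FPKM in vehicle libraries. Both overlapped the vehicle in both comparisons. Cldn12 had 1.66, 2.74 and 4.83 FPKM at the cymopol high dose and 3.08, 13.4 and 4.26 FPKM at the extract high dose, against 0, 156 and 0 FPKM in vehicle libraries. Vehicle replicate 4 thus held the highest Cldn12, as it did the highest Tjp1, and Cldn11 and Cldn13, named after their values were seen, had 13.7 and 11.3 FPKM there and at most 1.33 FPKM in any other library. The log2 differences of these 3 tested claudins were −0.48 to 0.90 at the cymopol high dose and −0.63 to 1.36 at the extract high dose, and none passed.

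Junction genes outside the 9 were also called in neither comparison. Over all genes, 79.6% were above 0 with the cymopol high dose and 77.1% with the extract high dose, beside which the counts below stand. The 10 other membrane genes of the tight junction had medians of 0.83 with cymopol and 1.04 with the extract. Of these, 9 of 10 were above 0 with cymopol and 8 with the extract. Marveld2, the tricellular junction protein tricellulin, had 2.84, 5.565 and 4.64 FPKM at the cymopol high dose and 3.13, 2.78 and 1.80 FPKM at the extract high dose, against 0, 0.337 and 0 FPKM in vehicle libraries. Neither high dose overlapped the vehicle, and the log2 difference was 2.24 (SE 0.80, adjusted p 0.289 by limma) with cymopol and 1.68 (SE 0.80, adjusted p 0.417) with the extract. Cxadr, a junction adhesion protein and virus receptor, had 2.49 (adjusted p 0.398 by limma) with cymopol and 2.16 (adjusted p 0.507) with the extract. The 23 cytoplasmic genes had medians of 1.08 with cymopol and 0.81 with the extract, with 20 of 23 above 0 with cymopol and 21 with the extract. Among them Magi1, a scaffold with several PDZ domains, had 0.947, 48.9 and 45.75 FPKM at the cymopol high dose and 83.4, 84.7 and 42.6 FPKM at the extract high dose, against 0.0559, 2.65 and 2.70 FPKM in vehicle libraries. Only the extract high dose was free of overlap, with a log2 difference of 4.81 (SE 1.29, adjusted p 0.264 by limma), against 2.77 (SE 1.29, adjusted p 0.355) with cymopol.

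Adherens junctions and desmosomes lie below the tight junction and hold cells together. Of 10 adherens junction genes, 9 were tested, with median log2 differences of 1.13 at the cymopol high dose and 1.27 at the extract high dose. Nectin3, an adhesion protein of adherens junctions, had the smallest p with cymopol, at 2.30 (SE 1.00, adjusted p 0.336 by limma), and was at 1.67 with the extract. The 9 desmosome genes had medians of 1.17 with cymopol and 0.91 with the extract. Dsc2, a desmosomal cadherin, had 8.97, 21.6 and 11.8 FPKM at the cymopol high dose and 6.39, 6.35 and 9.55 FPKM at the extract high dose, against 0, 1.47 and 0.7365 FPKM in vehicle libraries. It overlapped the vehicle in neither, and its log2 difference was 3.13 (SE 0.99, adjusted p 0.241 by limma) with cymopol and 2.35 (SE 0.99, adjusted p 0.379) with the extract. The medians of the 9 members lay above those of the other junction lists and below that of the epithelial markers in both comparisons. At the cymopol high dose the adipocyte marker median, 1.93, lay nearer to the members than the epithelial one. At the extract high dose it was 0.047. Surface colonocyte markers had medians of 0.99 with cymopol and 1.04 with the extract, and epithelial transcription factors 1.36 and 1.17. Members and lists were chosen with earlier results of these data known. The order is a description of these lists and was given no test.

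**Figure D4:**
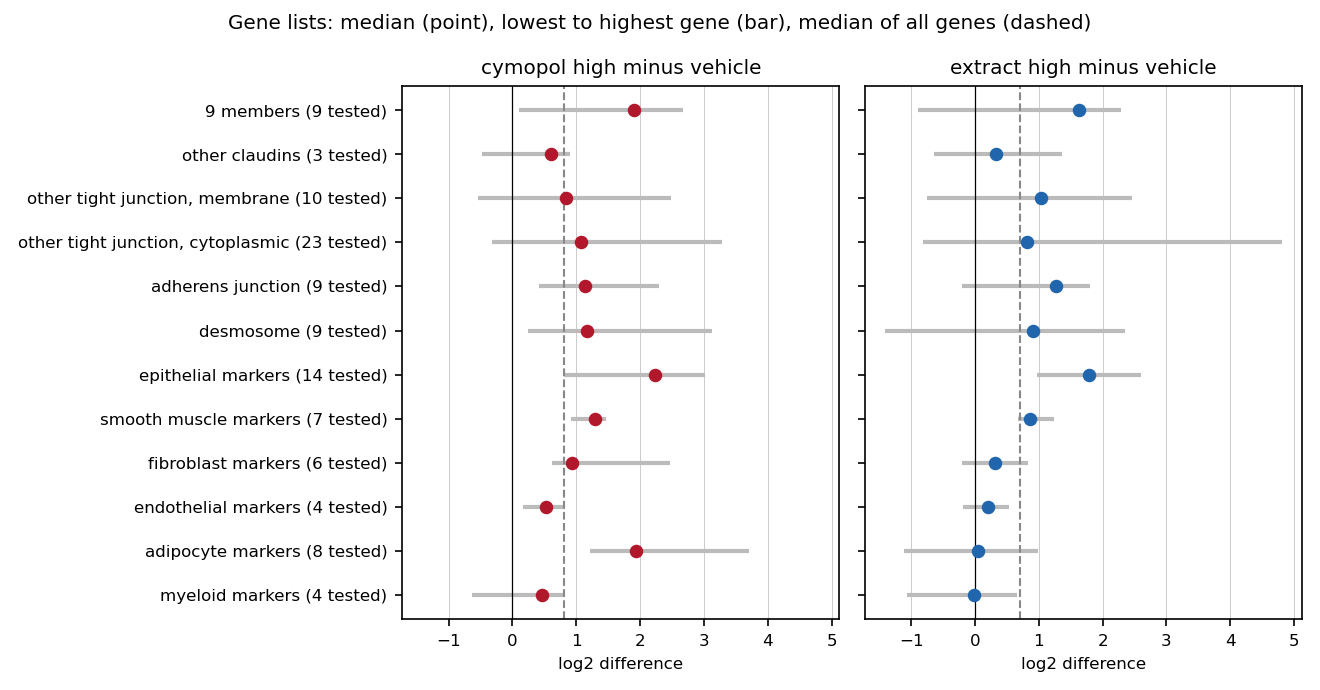
Points are the median log2 difference of each gene list from the vehicle, bars run from its lowest to its highest gene, and the dashed line is the median of all genes, with the number of genes tested beside each list. With the cymopol high dose the 9 members have a median of 1.90 and the epithelial markers 2.23, and with the extract high dose 1.64 and 1.78. The adipocyte markers have medians of 1.93 with cymopol and 0.047 with the extract.

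Some genes followed the 9 members closely across libraries. Likeness was the root mean square difference between centred log2(FPKM + 1) profiles over all 15 libraries, which differ in depth. Closest to the members' mean were Col6a2 at 0.42, Anxa2 at 0.44, Rnu3a at 0.45, Dag1 at 0.45 and Myo5b at 0.45, where the median over all genes was 1.17. For single members, the closest genes were Cdh1, Klf5 and Atp5a1 for Cldn7, at 0.45 to 0.50, and St14 for Cldn3, at 0.49. Tjp3 was closest to Gpi1, at 0.41, and Cldn4 to Zfand6, at 0.51. Amdhd2 was closest to Cldn23, at 0.54, Rcan1 to Ocln, at 0.58, and Txndc17 to Cldn15, at 0.58. Tcf7l2 was closest to Tjp1, at 0.62, and Pxylp1 to Cldn2, at 0.68.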

How the data were processed

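RNA from the large intestine was measured in 15 libraries. Per the labels' protocols, 90 ng of total RNA was depleted of ribosomal RNA before low-input library preparation, and the submitters' processing notes name STAR 2.4.0j and GRCm38.p4. The deposited FPKM values have the columns of a Cufflinks tracking table, per the file headers. Assembled loci were given to GENCODE M21 genes lacking their own row when both overlapped by at least 0.5 of their joint span. The tables hold no counts, so fragments were estimated from the deposited intervals and are too low for many assembled loci. Differences of log2(FPKM + 1) were fitted with limma 3.58.1 in R 4.3.3 to all 15 libraries, in 6 comparisons, two-sided, with Benjamini-Hochberg adjustment over 11585 genes at 0.05. The smallest p of an exact 3-against-3 test is 0.1. All 9 members were named, and from the other lists those with the smallest p, plus every other claudin tested, and 1 gene of these lists is not reported here. Members and lists were chosen with earlier results of these data known. Alternatives were a pseudocount of 0.1, other filters, scalings, weights and value sources, and leaving out libraries.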

Additional observations from a re-analysis of the deposited data

Results flagged for a closer look

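Assembled loci inside Tjp3 that were given to no gene appeared in every high dose library and in no vehicle library. They did not qualify as exonic pieces (at least 200 bp with at least 0.8 of their length in exons). The cymopol high dose held 3, 1 and 4 such loci, with a lowest count of 1, and the extract high dose held 1, 5 and 4, also with a lowest count of 1, against 0 in each of the 3 vehicle libraries. Of the 8 loci at the cymopol high dose, 2 are listed at 0 FPKM. The cymopol low dose held 0 in each library and the extract low dose 0, 1 and 0. Inside Ocln and Tjp1, vehicle libraries did hold such loci. The share of all genes with the Tjp3 pattern was not counted. Estimated fragments in protein-coding genes were 289042 to 344184 at the cymopol high dose, 175722 to 559640 at the extract high dose and 25153 to 227788 in vehicle libraries, and the part of depth in these counts was not tested.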

How the results depend on the processing

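No member passed the adjusted threshold by limma in any of the 101 pairs of comparison and setting. These pairs share models and libraries, so they are not independent checks. The number passing over all genes changed with the setting. At the cymopol high dose it was 2 of 11585 in the main fit and 8 without vehicle replicate 2. With at least 1 FPKM required in at least 8 libraries it was 11 of 7197. At the extract high dose these numbers were 1, 8 and 5. More genes passed without the 3 libraries over 20% intergenic, but those calls rest on a lone vehicle library. No paired analysis was possible because the groups share no replicate numbers. Median log2 differences of the members moved to 0.84 at the cymopol high dose and 0.47 at the extract high dose with median-of-ratios scaling. The medians over all genes were then 0.24 with cymopol and 0.25 with the extract. At the extract high dose the members moved to 0.59 with quantile normalization, where all genes were at −0.054. Without the 3 libraries over 20% intergenic they moved to 0.24, where all genes were at 0.14. Under median-of-ratios scaling Tjp1 turned to −0.95 at the cymopol high dose and Cldn7 to −0.22 at the extract high dose, and quantile normalization gave −0.59 for Tjp1 with cymopol. Without those 3 libraries the cymopol high dose gave −2.57 for Tjp1 and −0.54 for Cldn23, and the extract high dose −0.15 for Cldn23, 0.050 for Cldn4, 0.029 for Cldn7 and −3.56 for Tjp1, while Tjp1 was at −4.20 at the extract low dose (adjusted p 0.12 by limma). Over fits without 1 replicate, Tjp1 ranged from −1.14 to 1.45 at the cymopol high dose and from −2.13 to 0.45 at the extract high dose, where Cldn4 ranged from −0.081 to 1.49 and Cldn7 from −0.10 to 1.38. Cldn7 ranged from −2.43 to 0.41 at the extract low dose. With 1 replicate of either group left out, 4 to 6 members did not overlap the vehicle at the cymopol high dose. The share of all genes was 21.9% to 43.6%. The count of 6 came without vehicle replicate 5, where the share was 28.9%. The share of 43.6% came without vehicle replicate 4, where the count was 5. In the ranges that follow, counts and shares were likewise taken separately. At the cymopol low dose the count was 0 to 2, where the share was 4.51% to 15.5%. For the extract high dose it was 3 to 5, where the share was 21.4% to 43.5%. For the extract low dose it was 0 to 1, where the share was 1.57% to 12.1%. Between cymopol doses it was 0 to 4, where the share was 11.4% to 33.4%. Between extract doses it was 2 to 6, where the share was 21.4% to 41.0%. Without the 3 libraries the counts were 7 at the cymopol high dose, where 32.3% of all genes were without overlap, and 4 at the extract low dose, where 21.1% were. These counts without libraries were chosen after seeing the data. Using own Ensembl rows only kept Cldn4 and Cldn23. The cause of these changes was not tested.

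With 3 libraries per group and SEs of 1.11 to 1.39 for the members, differences of this size could not be told from the spread between libraries. Vehicle libraries had 8.53% to 46.5% of fragments in genes, below every high dose library, and every comparison against it carries that limit. Zeros may be failed estimates, since the tables list many genes at 0.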

Other observations

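Other members also held assembled loci inside the gene that were given to no gene and did not qualify as exonic pieces. Ocln held 0, 4 and 3 at the cymopol high dose and 0, 9 and 1 at the extract high dose, against 1, 3 and 0 in the vehicle. Tjp1 held 1, 6 and 0 at the extract high dose, against 7, 1 and 0 in the vehicle. These loci entered no test.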
